A study of Homo sapiens with 10 samples.

Results

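The genes described here encode the respiratory chain, the set of protein complexes in the inner mitochondrial membrane that pass electrons to oxygen and make ATP. They were chosen by name alone, from the symbol prefixes of the subunits of complexes I to V together with SDHA, SDHB, SDHC, SDHD and CYC1, leaving out symbols that end in P and a digit. By this rule 114 of 32738 genes in the count tables were members, 13 encoded by mitochondrial DNA and 101 by nuclear DNA. MT-ATP6 and MT-ATP8 also end in P and a digit but were kept, since the rule names their prefix, and ATP5EP2 and COX6A1P2 were left out. Of the nuclear members 88 rows are structural subunits: 39 of complex I, 5 of complex II, 10 of complex III, 18 of complex IV and 16 of complex V. The prefixes also brought in 8 assembly factors, 3 readthrough or antisense genes and 2 related genes, which are counted apart. The symbols NDUFB8, SDHD, UQCR11 and NDUFA7 each stand on 2 rows with different Ensembl identifiers, and 23 members have another symbol in GENCODE v44 (ATP5G3 is now ATP5MC3, for example).

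HCT-116 cells, an established human colon carcinoma line, were compared after doxorubicin (DOX) and without treatment. Doxorubicin is an anthracycline that poisons topoisomerase II and damages DNA. The DOX group is 2 libraries of cells that were held in 200 nM DOX over 24 h and then cultured without it over 6 d, and the untreated group is 2 libraries of the same line. RNA was captured in droplets, 1 barcode to a droplet, and each captured molecule was counted once by its unique molecular identifier (UMI). The labels do not say whether replicates came from separate cultures. The p-values thus measure only the spread between these libraries or, where the library was a block, the scatter left among sums within them. The study asked which cells survive DOX, and kept 8000 barcodes in each DOX library by instruction. It names no such number for the untreated libraries, which held 4701 and 2528 barcodes.

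The total was 159897846 and 170495465 UMIs in the DOX libraries, against 317489299 and 209547139 UMIs in the untreated libraries. Barcodes were kept with fewer than 12000 genes and fewer than 150000 UMIs and split by genes detected into shallow (fewer than 1000), intermediate, and deep (7000 or more). The DOX libraries held 5206 and 5622 shallow and 1598 and 1401 deep barcodes, against 151 and 77 shallow and 3231 and 1967 deep barcodes in the untreated libraries. The untreated shallow sums were small, with 206912 and 116924 UMIs, against 7866591 and 7606994 UMIs in the DOX shallow sums. Classes are ranges and not cell types: in the 4 libraries 20 to 744 barcodes had at least 900 but fewer than 1100 genes, and 128 to 511 had at least 6500 but fewer than 7500. Of 10 colon epithelial markers, 6 to 7 reached 1 CPM (a gene's UMIs scaled to a common library total) in every class and library. The summed markers of blood, of fibroblast and endothelium, and of muscle were between 0 and 8.55 CPM. In the untreated shallow sums 1 UMI was 4.83 and 8.55 CPM, so there every marker with a UMI reached 1 CPM. Pairs of libraries shared 5 to 24 barcode sequences.

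Each complex is built from proteins of different origin. Complex I (NADH dehydrogenase) and complex II (succinate dehydrogenase) feed electrons to ubiquinone, complex III passes them to cytochrome c, complex IV (cytochrome c oxidase) passes them to oxygen, and complex V (ATP synthase) uses the proton gradient. The mitochondrial DNA encodes core subunits of every complex except complex II, and is transcribed from both strands into long precursors that are cut into single RNAs. All other subunits come from nuclear genes, whose promoters are known for sites of NRF1, of ETS factors such as GABP, and of YY1. The nuclear mRNAs are translated on cytosolic ribosomes, or at the mitochondrial surface, and the proteins are imported.

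RefSeq promoter windows of 250 bases before to 50 bases after the start (GRCh38.p14) were found for 76 nuclear members. They were searched on both strands for the NRF1 core GCATGCGC, the ETS core CCGGAAGT and the YY1 core AAGATGGC, and a match is a description of letters, not a binding site. The NRF1 letters were in 15 of 76 member windows (19.7%), against 3.27% of all 27305 windows. The ETS letters were in 9 member windows (11.8%), against 4.44% of all windows. The YY1 letters were in 11 member windows (14.5%), against 3.03% of all windows. At least 1 of the 3 was in 29 member windows (38.2%), against 9.94% of all windows. The NRF1 core read on the other strand overlaps itself, so 1 stretch can match on both strands. The windows below, 30 bases each along the gene's strand with the matched core in capitals, are from members whose levels are described further on; they show the letters the 3 searches found.
SDHD, NRF1 core, chr11:112086754-112086783, + strand: gctgtgtttgcGCATGCGCgacgggtgtgc
SDHD, ETS core on the other strand, chr11:112086784-112086813, + strand: accgcctctcgACTTCCGGttcacccagca
SDHB, YY1 core, chr1:17054004-17054033, - strand: cgtcaggagccAAGATGGCggcggtggtcg
NDUFAF4, NRF1 core on the other strand, chr6:96897867-96897896, - strand: ccctcacttgtGCGCATGCtccgggtgtcc
COX8A, ETS core on the other strand, chr11:63974590-63974619, + strand: ccagctccagaACTTCCGGccagcgcagcc
In SDHD the NRF1 and ETS windows adjoin each other upstream of the start, and the YY1 letters of SDHB lie just after it.

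The first question was how large a share of the RNA the respiratory chain took. In deep barcodes the 13 mitochondrially encoded members held 7.61% and 8.35% of UMIs in the DOX libraries, against 5.38% and 5.03% in the untreated libraries. The nuclear members held 1.92% and 1.90% in the DOX libraries, against 2.15% and 2.08% in the untreated libraries. The groups did not overlap for either share, and the shares moved in opposite directions. The log2 ratio of mitochondrial to nuclear member UMIs was 1.98 and 2.13 in DOX deep barcodes, against 1.32 and 1.27 in untreated deep barcodes, a difference of 0.76. By the exact two-sided permutation test over libraries p was 0.333, the smallest value that 2 against 2 libraries allow.

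The mitochondrial share was higher in DOX deep barcodes at the lower quartile, the median and the upper end. In deep barcodes 30.1% and 36.3% had at least 8% mitochondrial UMIs in the DOX libraries, against 7.43% and 5.44% in the untreated libraries. The lower quartile was 4.62% and 5.09% in the DOX libraries, against 4.31% and 4.08% in the untreated libraries. The median deep barcode held 6.27% and 6.71% mitochondrial UMIs in the DOX libraries, against 5.28% and 5.06% in the untreated libraries. When barcodes of 8% or more were left out, as the study did, the log2 ratio was 1.21 and 1.28 in DOX deep barcodes, against 1.24 and 1.21 in untreated deep barcodes, and the groups overlapped. That limit selects barcodes on the share of the members, which is the outcome compared here. Across deep barcodes the Spearman correlation of the mitochondrial with the nuclear share was -0.44 and -0.49 in the DOX libraries, against -0.11 and -0.15 in the untreated libraries. With the nuclear share taken of the remaining, non-mitochondrial UMIs it was -0.35 and -0.40 in DOX, against -0.01 and -0.05 in untreated barcodes. These correlations are a description over 1401 to 3231 barcodes that share a library and differ in depth.

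In shallow barcodes the order was turned round. The mitochondrially encoded members held 4.95% and 6.88% of summed UMIs in the DOX libraries, against 30.3% and 38.0% in the untreated libraries. The nuclear members held 3.27% and 3.15% in the DOX libraries, against 1.46% and 1.23% in the untreated libraries. Few barcodes held much of the untreated mitochondrial share, as 19 of 151 and 11 of 77 untreated shallow barcodes had 50% or more mitochondrial UMIs, while 23 of 5206 and 25 of 5622 DOX shallow barcodes did. Without them the mitochondrial share was 3.60% and 5.26% in the DOX libraries, against 5.19% and 6.08% in the untreated libraries, which overlap, while the log2 ratio of mitochondrial to nuclear UMIs was 0.12 and 0.71 in DOX, against 1.42 and 1.69 in untreated shallow barcodes, which do not. The nuclear share without them was still 3.32% and 3.21% in the DOX libraries, against 1.94% and 1.88% in the untreated libraries. The summed epithelial markers also differed in this class, at 13398 and 11876 CPM in DOX, against 3011 and 2395 CPM in untreated shallow barcodes, as did the median depth, at 1423 and 1225 UMIs in DOX, against 1020 and 1092 UMIs in untreated shallow barcodes. The part of either, of free RNA in droplets, and of the barcode number set for DOX alone, in the shallow values was not tested. The median shallow barcode held 1.25% and 2.10% mitochondrial UMIs in the DOX libraries, against 4.13% and 4.49% in the untreated libraries. In the DOX libraries 45.9% and 37.8% of shallow barcodes had under 1% mitochondrial UMIs, against 19.2% and 9.09% in the untreated libraries.

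In intermediate barcodes neither share of all summed UMIs separated the conditions. The mitochondrial members held 8.22% and 11.6% in the DOX libraries, against 8.58% and 9.83% in the untreated libraries. The nuclear members held 2.35% and 1.91% in the DOX libraries, against 1.94% and 1.85% in the untreated libraries. The nuclear share of non-mitochondrial UMIs did not overlap, at 2.56% and 2.16% in the DOX libraries, against 2.12% and 2.05% in the untreated libraries. The median barcode also separated them, with 1.68% and 3.08% mitochondrial UMIs in the DOX libraries, against 6.38% and 6.42% in the untreated libraries.

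**Figure D1:**
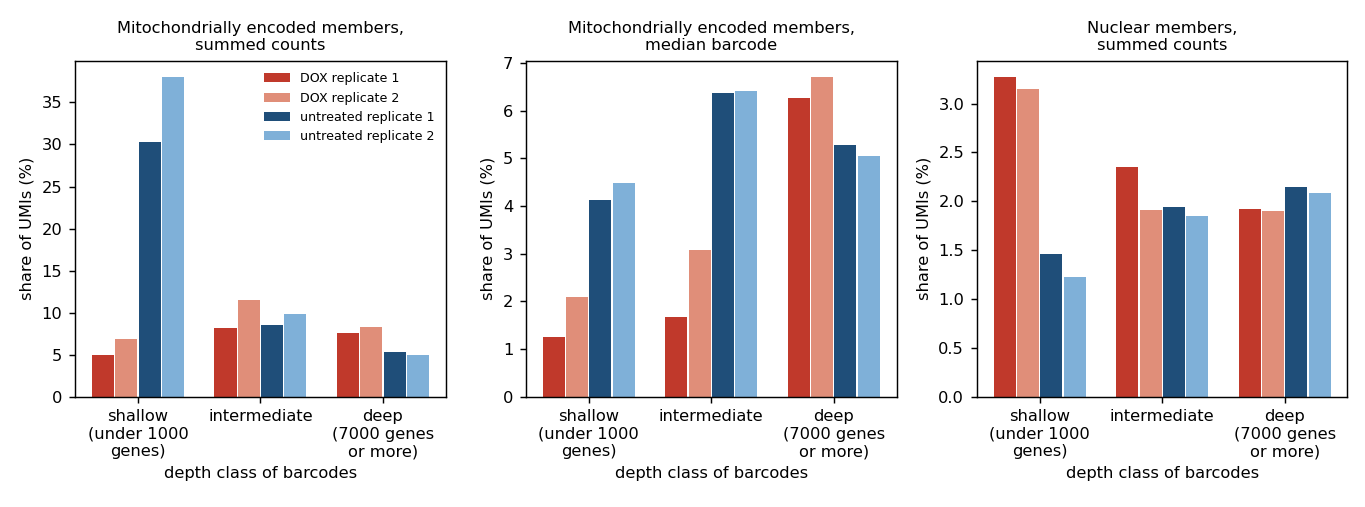
Share of UMIs (%) in each depth class for DOX replicates 1 and 2 (reds) and untreated replicates 1 and 2 (blues); bars are single libraries. The left and right panels show summed counts of the mitochondrially encoded and of the nuclear members, and the middle panel the median barcode: the untreated shallow sums reach 30.3% and 38.0%, but their median barcodes only 4.13% and 4.49%.

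The mitochondrial share did not change evenly with depth. In the DOX libraries the median was 32.9% and 18.8% from 500 to below 600 genes, 0.757% and 1.03% from 800 to below 1000 genes, and 6.35% and 6.60% from 8000 to below 9000 genes. The lowest range held 23 and 376 DOX barcodes and lies at the edge that the kept number of barcodes set. In the untreated libraries the median was 2.95% and 4.02% from 800 to below 1000 genes and 5.32% and 5.24% from 8000 to below 9000 genes. The nuclear share of non-mitochondrial UMIs in DOX barcodes was 3.36% and 3.25% from 800 to below 1000 genes, and 2.33% and 2.35% from 8000 to below 9000 genes. In untreated barcodes it was 2.11% and 2.06% from 800 to below 1000 genes, and 2.31% and 2.26% from 8000 to below 9000 genes. From 8000 to below 9000 genes the nuclear shares of both conditions thus lay within 2.26% to 2.35%, and from 10000 to below 12000 genes DOX barcodes had 1.65% and 1.70%, against 2.11% and 2.07% in untreated barcodes.

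**Figure D2:**
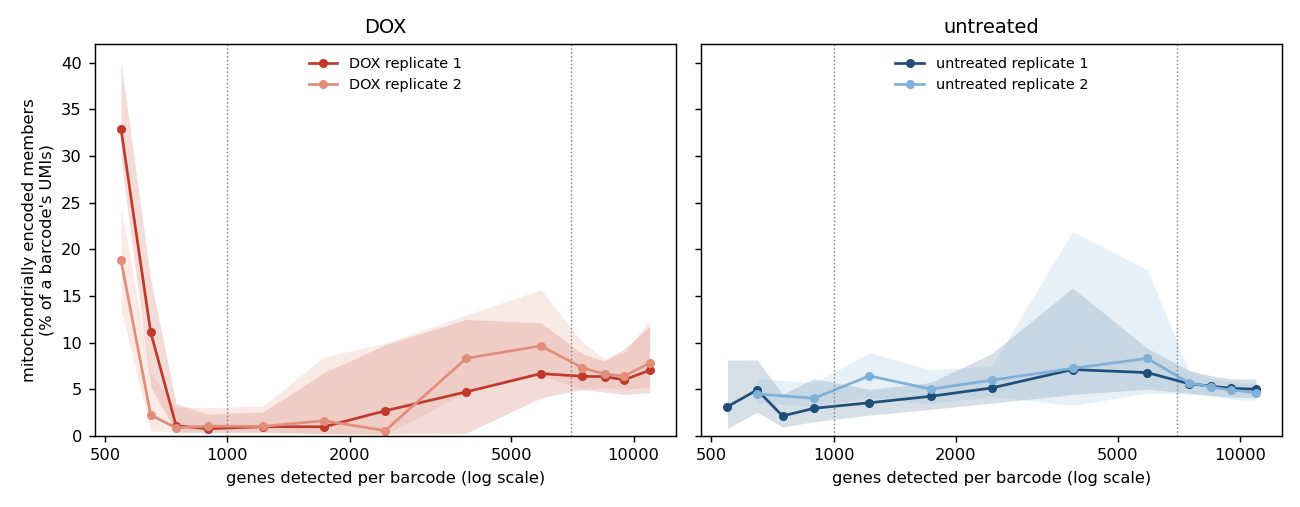
Mitochondrially encoded members as a percentage of a barcode's UMIs against genes detected per barcode (log scale), DOX libraries left and untreated libraries right. Points are medians of ranges with at least 20 barcodes, shading spans the middle quartiles, and dotted lines mark 1000 and 7000 genes; the DOX medians drop to 0.757% and 1.03% from 800 to below 1000 genes, where the untreated medians are 2.95% and 4.02%.

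Single genes were then compared between DOX and untreated in deep barcodes with edgeR's quasi-likelihood test on UMIs summed per library. Levels in these comparisons are CPM on the TMM scale, and p-values were adjusted by Benjamini-Hochberg over the 22103 genes tested. The scaling matters here, because TMM factors put the median log2 change of all genes at 0.06, while library totals put it at 0.37, a shift of -0.31. Changes below are relative to the TMM scale, and library totals turn the sign of some, which is given beside the genes described.

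All 13 mitochondrially encoded members were tested: 6 rose (33.7% of all genes rose) and 2 fell (31.3% of all genes fell). The median change was 0.06, the same as over all genes. The 6 that rose kept this direction by library totals. There 9 members were called up and 2 down, against 11559 up and 3524 down of all 22103 genes. With barcodes of 8% or more mitochondrial UMIs left out, 5275 of 20838 genes tested were called up and 5111 down. Of the 13 members none was then called up, 6 were called down and the median was -0.25. Without DOX replicate 2, 2 were called up (MT-CYB and MT-ND5), and without DOX replicate 1, 4 were. MT-ND6 and MT-ATP8 fell in all 4 fits that left out a library, and 4 genes fell without untreated replicate 2.

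MT-CYB, the single complex III subunit of the mitochondrial DNA (chrM:14747-15887, + strand), had 6875 and 7655 CPM in DOX, against 4736 and 3659 CPM in untreated deep barcodes. It rose by 0.79 on the log2 scale (SE 0.12, adjusted p = 0.000181). Among the core subunits of complex I, MT-ND5 had 948 and 1112 CPM in DOX, against 691 and 662 CPM in untreated barcodes (log2 change 0.61, SE 0.09). MT-ND4 rose by 0.49 (SE 0.10) and MT-ND3 by 0.30 (SE 0.10), with adjusted p of 0.00146 and 0.0186. MT-ND1, MT-ND2 and MT-ND4L had log2 changes of -0.10, -0.17 and -0.08 and did not pass the test. By library totals all 3 were above 0: MT-ND1 (0.21) and MT-ND4L (0.23) were called higher, and MT-ND2 (0.14) did not pass the test.

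MT-ND6 is the only protein gene on the opposite, light strand of the mitochondrial DNA (chrM:14149-14673, - strand). It had 202 and 238 CPM in DOX, against 486 and 465 CPM in untreated deep barcodes. It fell by 1.11 on the log2 scale (SE 0.09, adjusted p = 1.01e-06), and by 0.80 by library totals. Both DOX values lay below both untreated values, the reverse of its neighbour MT-CYB on the other strand.

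Among the mitochondrially encoded subunits of complex IV, MT-CO1 had 10067 and 11040 CPM in DOX, against 7757 and 6909 CPM in untreated deep barcodes (log2 change 0.53, SE 0.10, adjusted p = 0.00091). MT-CO2 had 13524 and 14577 CPM in DOX, against 11160 and 9362 CPM in untreated barcodes (log2 change 0.45, SE 0.11). MT-CO3 overlapped between the groups, with 15339 and 15834 CPM in DOX, against 15974 and 13830 CPM in untreated barcodes. In complex V, MT-ATP8 had 153 and 178 CPM in DOX, against 269 and 269 CPM in untreated barcodes, and fell by 0.70 (SE 0.08). MT-ATP6, which overlaps MT-ATP8 on the genome (chrM:8527-9207 and chrM:8366-8572), had a log2 change of -0.16, and of 0.15 by library totals, neither of which passed the test. MT-ND4L and MT-ND4 overlap in the same way, so counts of such pairs are uncertain, as are counts shared with nuclear copies of mitochondrial DNA.

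The makeup of the 13 RNAs is free of library scaling. MT-ND6 was 0.293% and 0.320% of mitochondrial UMIs in DOX deep barcodes, against 0.790% and 0.853% in untreated deep barcodes. In shallow barcodes it was 0.406% and 0.335% in DOX, against 1.31% and 1.21% in untreated barcodes. MT-CYB went the other way, with 10.0% and 10.3% in DOX deep barcodes, against 7.69% and 6.71% in untreated deep barcodes. In shallow barcodes it was 9.04% and 9.62% in DOX, against 6.76% and 5.76% in untreated barcodes. MT-ATP8 was 0.222% and 0.240% in DOX deep barcodes, against 0.438% and 0.493% in untreated deep barcodes. With barcodes of 8% or more left out the same 3 genes still did not overlap between groups in either class. The deep log2 differences were then -0.79 for MT-ND6, 0.34 for MT-CYB and -0.66 for MT-ATP8. Most of the 13 shared this lack of overlap: in deep barcodes only MT-ND3 overlapped, with or without that limit. In shallow barcodes with the limit only MT-ND3, MT-CO3 and MT-ATP6 overlapped. The 13 values are parts of 1 total, so a change in an abundant RNA moves the others, and no such share was made over all genes. For 1 quantity a lack of overlap gives p of 0.333 by the exact two-sided permutation test of 2 against 2 libraries. MT-ND6, MT-CYB and MT-ATP8 were singled out after their values were seen.

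On the TMM scale most nuclear members went down in DOX deep barcodes. Of 101, 94 passed the filter on low counts, 79 fell (31.3% of all genes fell), 2 rose (33.7% of all genes rose) and 13 did not pass the test. Their median log2 change was -0.45, against 0.06 over all genes tested. By library totals 45 were called down and 12 up, with a median of -0.14 against 0.37 over all genes. On that scale 3524 of all 22103 genes were called down and 11559 up. With barcodes of 8% or more mitochondrial UMIs left out 40 members were called down and 5 up, with a median of -0.17. Their summed share of UMIs was then 2.14% and 2.18% in DOX, against 2.17% and 2.09% in untreated deep barcodes, and the groups overlapped. Of 20838 genes then tested 5111 were called down and 5275 up, with a median of 0.03.

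In complex I, 34 of 37 nuclear subunits tested fell, and none rose, also at an unadjusted p under 0.05 by edgeR. NDUFS3, a core subunit of the arm that takes up electrons (chr11:47586888-47606114 on hg19), had 65.3 and 67.1 CPM in DOX, against 136 and 117 CPM in untreated deep barcodes. It fell by 0.93 on the log2 scale (SE 0.08). The assembly factor NDUFAF4 had 50.2 and 46.8 CPM in DOX, against 97.1 and 86.1 CPM in untreated barcodes, and fell by 0.92 (SE 0.07). Of the more abundant subunits, NDUFS5 fell by 0.50 and NDUFB10 by 0.53. NDUFA11, NDUFA13 and NDUFV3 did not pass the test, with log2 changes of -0.09, 0.01 and -0.11, but by library totals all 3 were called higher, at 0.22, 0.33 and 0.20. Of the 7 complex I assembly factors 6 fell, the exception being NDUFAF3, at -0.01 on the TMM scale and called higher, at 0.31, by library totals.

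Complex II is wholly nuclear. SDHB, its iron-sulfur subunit, had 76.1 and 74.4 CPM in DOX, against 130 and 121 CPM in untreated deep barcodes, and fell by 0.74 (SE 0.06, adjusted p = 2.07e-06). SDHC, a membrane anchor, fell by 0.55 and SDHA, the flavoprotein, by 0.44. SDHD, the other anchor, stands on 2 rows. The row ENSG00000204370 had 37.8 and 39.1 CPM in DOX, against 88.8 and 69.4 CPM in untreated barcodes, and fell by 1.04 (SE 0.10), the largest fall of any nuclear member tested. The row ENSG00000255292, which overlaps it (chr11:111957627-112064528 on hg19), had 9.81 and 9.66 CPM in DOX, against 7.41 and 8.21 CPM in untreated barcodes, and rose by 0.32 (SE 0.08), so how reads were split between these rows is uncertain.

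In complex III, 8 of 10 nuclear subunits fell. CYC1, cytochrome c1, had 213 and 209 CPM in DOX, against 396 and 335 CPM in untreated deep barcodes, and fell by 0.79 (SE 0.08). UQCRFS1, the Rieske iron-sulfur protein, had 132 and 128 CPM in DOX, against 238 and 208 CPM in untreated barcodes, and fell by 0.78 (SE 0.08). UQCRH fell by 0.42 and UQCRB by 0.25. UQCRB was 0.06 by library totals, thus above 0. UQCR11 (row ENSG00000127540) had 409 and 381 CPM in DOX, against 361 and 373 CPM in untreated barcodes, a change of 0.10 that did not pass the test, and 0.41 by library totals, which did.

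Complex IV had the median nearest to 0 of the 5 complexes. Of 14 nuclear subunits tested 9 fell, 1 rose and 4 did not pass the test, and the median was -0.24. COX8A had 223 and 220 CPM in DOX, against 329 and 331 CPM in untreated deep barcodes, and fell by 0.58 (SE 0.07, adjusted p = 1.58e-05). COX7B fell by 0.51, COX4I1 by 0.44, NDUFA4 (a complex IV subunit despite its name) by 0.42, and COX6B1 by 0.39. COX7C, COX7A2 and COX6C fell by 0.25, 0.22 and 0.21, and by library totals all 3 were above 0, at 0.06, 0.09 and 0.10. COX6A1 was level, with 212 and 201 CPM in DOX, against 214 and 204 CPM in untreated barcodes. COX7A2L, a factor of supercomplex assembly, fell by 0.44.

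Isoforms known for restricted expression were near the lower limit. COX8C, known from testis, was called up at 1.85, but on 31 and 32 UMIs in DOX, against 14 and 9 UMIs in untreated deep barcodes, or 0.24 and 0.26 CPM of all UMIs in DOX, against 0.056 and 0.054 CPM in untreated deep barcodes. COX6B2 and NDUFA4L2 were also under 1 CPM and did not pass the test. COX7B2, COX6A2, COX4I2 and COX7A1 had 0 to 9 UMIs in every deep sum and were not tested. Their common counterparts COX7B, COX6A1, COX4I1 and COX7A2 were each at more than 200 CPM in every deep library.

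In complex V all 16 nuclear members counted as subunits fell, with a median of -0.55 and a range from -0.92 to -0.33. ATP5G3, a copy of the membrane ring subunit c (chr2:176040986-176046438 on hg19), had 426 and 407 CPM in DOX, against 863 and 712 CPM in untreated deep barcodes, and fell by 0.92 (SE 0.09, adjusted p = 6.97e-06). ATP5E, a subunit of the central stalk, had 667 and 681 CPM in DOX, against 848 and 924 CPM in untreated barcodes, and fell by 0.40 (SE 0.08). ATP5L2 fell by 0.75, at 0.64 and 0.68 CPM in DOX, against 1.20 and 1.02 CPM in untreated barcodes, and it resembles ATP5L, so its counts are uncertain.

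**Figure D3:**
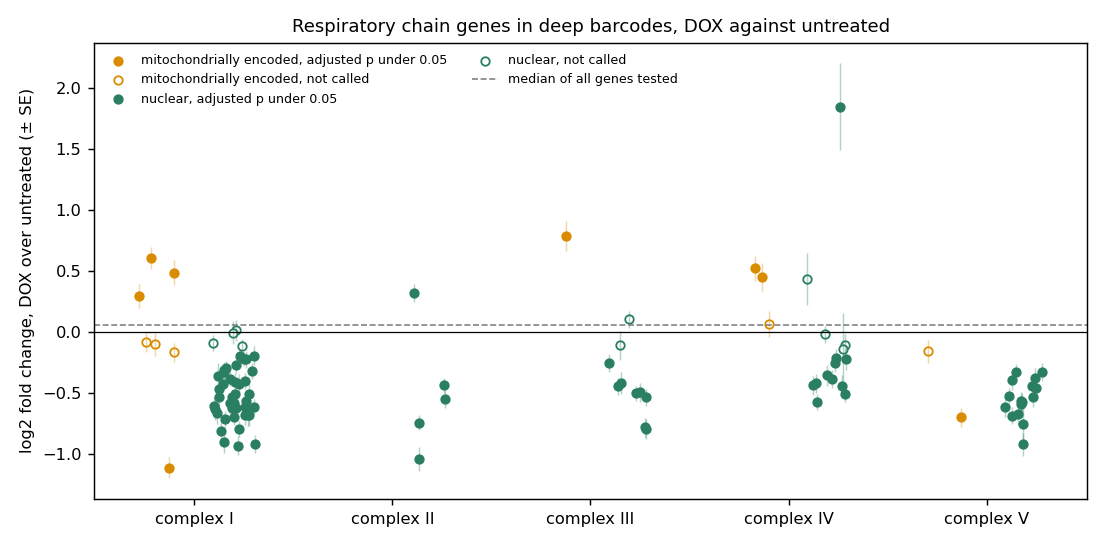
Log2 fold change (DOX over untreated, ± SE, TMM scale) of each tested member in deep barcodes, by complex. Filled points have an adjusted p under 0.05; the nuclear members (green) lie mostly below 0, with a median of -0.45, while the mitochondrially encoded members (orange) spread from -1.11 to 0.79 on both sides of the median of all genes (dashed, 0.06).

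Most other genes of mitochondrial respiration moved with the nuclear members in deep barcodes. The fall was not confined to them: of 81 cytosolic ribosomal proteins tested 46 fell and 2 rose, with a median of -0.26. Over all genes tested 31.3% fell and 33.7% rose, with a median of 0.06. Of 78 mitochondrial ribosomal proteins 75 fell, with a median of -0.76. Of 40 other assembly factors and carriers 36 fell, among them CYCS, cytochrome c, at -1.07. Of 28 genes of mitochondrial DNA upkeep and expression 25 fell, including TFAM at -0.85, POLRMT, the mitochondrial RNA polymerase, at -0.68, and LRPPRC, a binder of mitochondrial mRNAs, at -0.52. Of 18 citric acid cycle genes 16 fell, with CS, citrate synthase, at -0.66. Of 18 glycolysis genes 10 fell and 3 rose, and the glucose transporter SLC2A1 was at 0.90. Of 11 regulators of biogenesis 7 fell and 3 rose. The coactivator PPARGC1A was at 2.66 with an SE of 0.59. It did not pass the filter on low counts in shallow barcodes, nor in shallow against deep barcodes of the DOX libraries. NRF1 was at -0.42 (SE 0.07) and GABPA at -0.37 (SE 0.06). The nuclear-retained RNAs MALAT1, NEAT1 and KCNQ1OT1 rose by 0.81, 2.24 and 0.40, and their summed level was 12358 and 12282 CPM of all UMIs in DOX, against 5270 and 5473 CPM in untreated deep barcodes; their part in the fall of the nuclear members was not tested.

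The next question was how shallow differed from deep barcodes within the DOX libraries. The 2 DOX libraries by 3 classes gave 6 sums, fitted with the library as a block, and 15872 genes were tested. TMM lifted the shallow sums here, since the median over all genes was -0.09 on the TMM scale and -0.83 by library totals. Of 90 nuclear members tested 82 were higher in shallow barcodes (27.9% of all genes were higher) and 2 were lower (30.4% of all genes were lower). Their median was 1.37 on the TMM scale and 0.63 by library totals, where 72 were called higher and 8 lower.

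The 5 largest rises were of accessory subunits. COX6C had 1015 and 974 CPM of all UMIs in shallow barcodes of the DOX libraries, against 429 and 424 in their deep barcodes, and was 1.95 higher on the log2 TMM scale (SE 0.11, adjusted p = 1.67e-05). NDUFA1 had 393 and 387 in shallow, against 172 and 176 in deep barcodes, a difference of 1.90 (SE 0.12). COX4I1 had 1327 and 1335 in shallow, against 601 and 615 in deep barcodes, a difference of 1.87 (SE 0.11). UQCRB and NDUFB3 were 1.85 and 1.83 higher. In each of these genes both shallow sums lay above both deep sums on the scale of all UMIs too.

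Some members stood lower in this order. SDHA was 0.43 higher (SE 0.11, adjusted p = 0.0113), but of all UMIs it took less, at 35.8 and 38.4 CPM in shallow, against 45.5 and 46.2 CPM in deep barcodes, and by library totals it was called lower, at -0.31. NDUFS1, the largest subunit of complex I, had 37.0 and 35.5 CPM of all UMIs in shallow, against 72.2 and 71.1 in deep barcodes, and its difference of -0.25 did not pass the test, while by library totals it was -0.98 and called lower. The lower SDHD row (ENSG00000255292) had 10 and 12 UMIs in shallow, against 1394 and 1335 UMIs in deep barcodes, and was 2.20 lower (SE 0.26). The readthrough gene NDUFC2-KCTD14 had 0 and 3 UMIs in shallow sums and was called lower, but at so few UMIs its fitted change is not a bound.

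The mitochondrially encoded members turned with the scale. On the TMM scale 7 of 13 were higher in shallow barcodes (27.9% of all genes were higher) and none lower, with 0 lower at an unadjusted p under 0.05 by edgeR and 0 called lower by DESeq2. The median was 0.36. By library totals none was higher and 8 were lower, with a median of -0.37. Leaving out barcodes with 50% or more mitochondrial UMIs gave 1 higher and 4 lower, and leaving out those with 8% or more gave 0 higher and 13 lower. MT-CO2 had 7359 and 10459 CPM of all UMIs in shallow, against 14962 and 16338 in deep barcodes, and MT-CO3 had 14380 and 18992 in shallow, against 16970 and 17748 in deep barcodes. So MT-CO2 was lower in both shallow sums and MT-CO3 overlapped. Relative to the nuclear members, the mitochondrial ones were lower in shallow barcodes of both libraries: the log2 ratio differed by -1.39 in replicate 1 and by -1.0 in replicate 2.

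Other lists differed in this contrast. Of the cytosolic ribosomal proteins 79 of 79 tested were higher in shallow barcodes (median 1.43), as were 71 of 74 mitochondrial ribosomal proteins (median 1.12). Citric acid cycle genes were higher in 12 of 18 and lower in 2, with a median of 0.86. Genes of mitochondrial DNA expression were higher in 10 and lower in 7 of 28, with a median of 0.11, and biogenesis regulators higher in 2 and lower in 4 of 9, with a median of -0.08. Over all genes tested 27.9% were higher and 30.4% lower, with a median of -0.09. The 3 nuclear-retained RNAs were lower, with a median of -2.00, and summed to 2234 and 2737 CPM of all UMIs in shallow, against 12358 and 12282 in deep barcodes of the DOX libraries. Their part in the level of the respiratory chain was not tested.

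**Figure D4:**
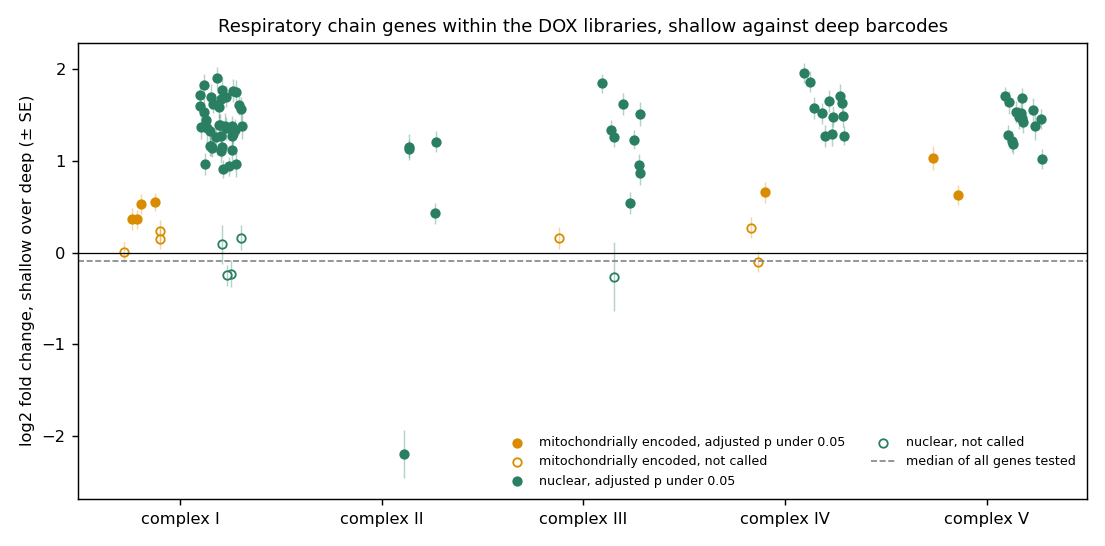
Log2 fold change (shallow over deep barcodes of the DOX libraries, ± SE, TMM scale) of each tested member by complex. Nuclear members (green) lie mostly between 1 and 1.95, and mitochondrially encoded members (orange) between -0.10 and 1.03; library totals would lower every point by about 0.73.

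Shallow barcodes were last compared between DOX and untreated, with 11482 genes tested. The kept number of barcodes was set for the DOX libraries alone, so its part and that of DOX cannot be told apart here. Of 86 nuclear members tested 73 rose (14.6% of all genes rose) and none fell (8.31% of all genes fell), while 1 was lower at an unadjusted p under 0.05 by edgeR and 0 fell by DESeq2. The median was 1.50, against 0.19 over all genes. By library totals 62 were called up and 1 down, against 1132 up and 1680 down of all 11482 genes. Leaving out barcodes with 50% or more mitochondrial UMIs, a choice made after seeing the untreated shallow barcodes, gave 73 up and none down. All 9 tested subunits of complex III, 11 of complex IV and 15 of complex V rose, as did 33 of 37 in complex I and 2 of 4 in complex II.

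UQCR11 (row ENSG00000127540) had 941 and 906 CPM in DOX, against 156 and 152 CPM in untreated shallow barcodes, and rose by 2.58 (SE 0.18, adjusted p = 1.91e-08). COX6C had 1146 and 1113 CPM in DOX, against 270 and 205 CPM in untreated shallow barcodes, from 64 and 27 untreated UMIs, and rose by 2.20 (SE 0.17). COX4I1 had 1498 and 1526 CPM in DOX, against 435 and 372 CPM in untreated shallow barcodes, and rose by 1.88 (SE 0.15). SDHA and NDUFS1 did not rise, at -0.49 and -0.67 with adjusted p of 0.294 and 0.131, on 17 and 5, and on 13 and 11 untreated UMIs. The cytosolic ribosomal proteins rose in 77 of 79 (14.6% of all genes rose), with a median of 1.78.

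All 13 mitochondrially encoded members fell in this comparison (8.31% of all genes fell), from -3.94 for MT-ND6 to -1.57 for MT-CYB, but most changed sign without the barcodes of 50% or more mitochondrial UMIs (23 and 25 in the DOX libraries, 19 and 11 in the untreated libraries). MT-ND6 had 227 and 263 CPM in DOX, against 3480 and 4087 CPM in untreated shallow barcodes. MT-CYB had 5051 and 7567 CPM in DOX, against 17928 and 19428 CPM in untreated shallow barcodes. Without barcodes of 50% or more mitochondrial UMIs 5 rose and 4 fell, and the median was 0.32 in place of -2.35. MT-CYB was then at 1.22, MT-CO1 at 0.89 and MT-ND6 at -1.50, all 3 past the threshold. With barcodes of 8% or more left out, 1 rose and 3 fell: MT-CYB at 0.75, and MT-ND6, MT-ATP8 and MT-ND2 at -2.06, -1.36 and -1.06. MT-ND6 thus fell and stood lowest of the 13 in all of these fits.

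**Figure D5:**
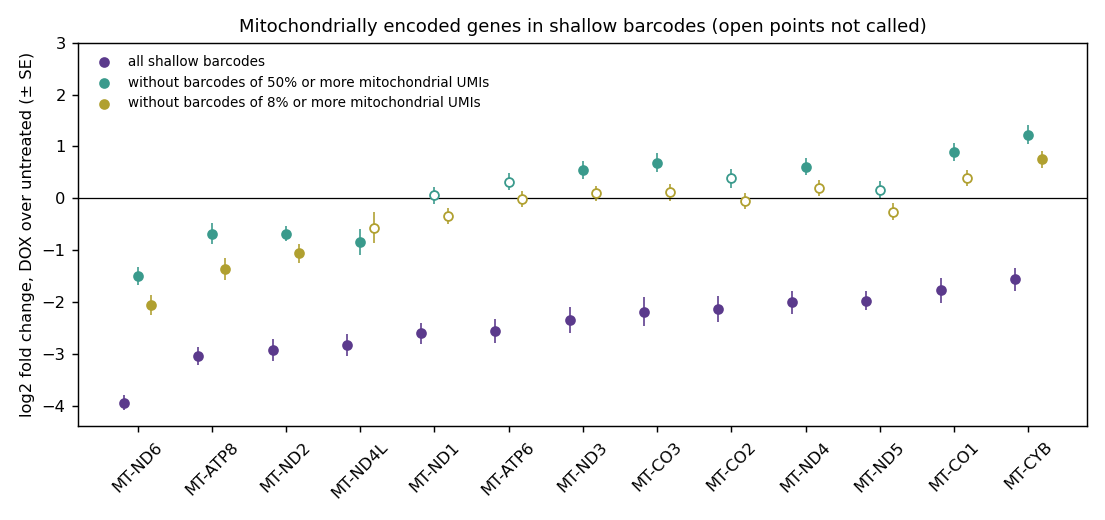
Log2 fold change (DOX over untreated, ± SE, TMM scale) of the 13 mitochondrially encoded members in shallow barcodes, with all barcodes (purple), without those of 50% or more (teal) and without those of 8% or more mitochondrial UMIs (yellow); open points were not called. All 13 lie below 0 with all barcodes, whereas MT-CYB is at 1.22 and MT-ND6 at -1.50 without barcodes of 50% or more.

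The DOX effects in shallow and deep barcodes were compared directly in 1 fit over 12 sums, with the library as a block and 16202 genes tested. For the nuclear members the effect was higher in shallow barcodes in 79 of 91 (16.4% of all genes were higher) and lower in none (3.92% of all genes were lower), with 0 lower at an unadjusted p under 0.05 by edgeR and 0 called lower by DESeq2. The median difference was 2.13, against 0.90 over all genes. This call held for 73 members when barcodes of 8% or more mitochondrial UMIs were left out and for 68 by library totals. For the mitochondrially encoded members the effect was lower in 13 of 13 (3.92% of all genes were lower), with a median of -2.42. Without barcodes of 50% or more mitochondrial UMIs it was lower in 4 (MT-ND2, MT-ND4L, MT-ND5 and MT-ND6), with a median of -0.09, and without those of 8% or more in MT-ND6 alone. NDUFC2-KCTD14, NDUFB2-AS1 and ATP5L2 had 0 UMIs in both untreated shallow sums, so their fitted differences are no bound and are not given.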

How the data were processed

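Single-cell RNA was measured in 2 DOX and 2 untreated libraries of HCT-116 cells with a 3′ droplet kit. The deposited values are raw UMI counts per gene and barcode, made by the authors with Cell Ranger on hg19 without normalization; the file headers and methods give version 7.2.0, and in the submitters' processing notes SAMtools 1.2, bedtools 2.25 and CASAVA 1.8.2 appear beside Cell Ranger 7.0.0. The bulk samples were not analysed here. Positions of members on hg19 are from GENCODE v44.

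Members and gene lists were chosen with earlier results of these data known. Counts were summed per library and depth class. The study's limits on genes and UMIs were kept, but its limit of 8% mitochondrial UMIs, which selects barcodes on members, was an alternative. Sums were tested with edgeR 4.0.16 (TMM, filterByExpr, quasi-likelihood F test, Benjamini-Hochberg over all genes tested, threshold 0.05), without a replicate block between conditions. DESeq2 1.42.0 was an alternative; R was 4.3.3, Python 3.11.15 and scipy 1.17.1. The fits were also run on simulated data, and the outcome is not given here. No doublets were called and no background RNA was taken off; leaving out the 5% of barcodes with most UMIs was an alternative. Between replicates, chi-square per degree of freedom was 12.6 and 35.5 for deep sums of DOX and untreated libraries, and 5.28 and 2.28 for shallow sums.

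Genes named were the 13 mitochondrially encoded members; per complex the 2 largest rises and falls in deep barcodes past the threshold without overlap and the 2 most abundant; SDHA to SDHD, CYC1 and a list of isoform genes; and the 5 largest rises and falls of shallow against deep. Others were chosen after their values were seen. Pathway lists were the mitochondrial and cytosolic ribosome, assembly factors and carriers, mitochondrial DNA expression, biogenesis regulators, citric acid cycle, glycolysis and nuclear-retained RNA.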

Additional observations from a re-analysis of the deposited data

Results flagged for a closer look

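With all barcodes, the DOX effect differed between shallow and deep barcodes by the test of the difference itself. Its direction was then opposite for the 2 genomes. Over all genes tested the median difference was 0.90, with 16.4% called higher and 3.92% called lower. For the mitochondrially encoded members the median difference of log2 fold changes was -2.42, and 13 members were called lower. Without barcodes of 50% or more mitochondrial UMIs the median was -0.09, and 4 were called lower. With the study's limit on mitochondrial UMIs the median was 0.082, and 1 was called lower. For the nuclear members the median difference was 2.13, and 79 members were called higher, against 77 without barcodes of 50% or more mitochondrial UMIs. With the study's limit the nuclear median was 1.66, and 73 were called higher. The medians of the 2 genomes then had the same sign, but the mitochondrial one was near 0. With this limit the log2 ratio of mitochondrial to nuclear UMIs, DOX minus untreated, was -1.58 in shallow and 0.022 in deep barcodes.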

How the results depend on the processing

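The median log2 change of the nuclear members kept its sign in all 4 comparisons under every alternative run. Their summed share in deep barcodes did not stay apart, since with the 8% limit DOX and untreated overlapped. In deep barcodes 79 fell, against 40 with the limit of 8% mitochondrial UMIs and 45 by library totals, which also called 12 up in place of 2. In shallow against deep barcodes of the DOX libraries library totals called 8 lower in place of 2. The mitochondrially encoded members depended more on the processing. With the 8% limit 0 rose and 6 fell in deep barcodes (median -0.25), 3 fell in shallow barcodes, 0 were higher in shallow than in deep barcodes of the DOX libraries (median -0.83), and the DOX effect was lower in shallow barcodes for 1 (median 0.082). The difference of log2 ratios was then 0.022 in deep and -1.58 in shallow barcodes. Without barcodes of 50% or more, an alternative chosen after seeing the data, 4 fell in shallow barcodes (median 0.32), 1 was higher in shallow than in deep (median -0.073), the effect was lower for 4, and the shallow ratio difference was -1.14. With classes set by UMIs these values were 4, 1 (median -0.31), 6 and -1.50. Without the 5% of barcodes with most UMIs 1 was higher in shallow than in deep (median -0.13), and the shallow ratio difference was -3.14. By library totals 0 were higher in shallow than in deep (median -0.37). DESeq2 called 4 lower in DOX deep barcodes.

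Of 107 members tested in deep barcodes, 12 reversed with the 8% limit and 17 by library totals. Those among the genes named by rule were, with the 8% limit, COX7C 0.070, COX7A2 0.087, UQCRB 0.057, COX6C 0.10, COX6A1 0.22, MT-ND3 -0.18 and the second SDHD row -0.0079, and by library totals COX7C 0.058, COX7A2 0.093, UQCRB 0.058, COX6C 0.10, COX6A1 0.29, MT-ND1 0.21 and MT-ND4L 0.23. In shallow barcodes MT-CYB was 0.75 with the 8% limit, 1.22 without barcodes of 50% or more and 0.85 with classes by UMIs. Causes were not tested, beyond the change of scale itself.

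Leaving out 1 library gave 71 to 84 nuclear members down, 2 to 7 mitochondrially encoded members up and 2 to 4 down in deep barcodes, with a median from -0.063 (without untreated replicate 2) to 0.16. It gave 63 to 68 nuclear members up and 13 mitochondrially encoded members down in shallow barcodes, and ratio differences of 0.69 to 0.83 in deep and -4.09 to -3.51 in shallow barcodes. A lone library is taken to vary like the other group. Replicate numbers do not pair the libraries: deviations correlated at 0.15 in deep and 0.03 in shallow sums. With the replicate number as a block 79 nuclear members fell and 6 mitochondrially encoded members rose and 3 fell in deep barcodes, and 72 rose and 13 fell in shallow barcodes; without the library block 4 mitochondrially encoded members were higher in shallow than in deep. The untreated shallow sums, 206912 and 116924 UMIs, limit the shallow comparison. That comparison also carries the choice of barcodes, since only the DOX libraries were held to a set number. In shallow barcodes, and in the difference of the DOX effect, DOX and this choice cannot be told apart.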
